A study of Caenorhabditis elegans with 4 samples.

Results

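The regions described here are the 1259 enriched intervals that the combined list of a LIN-39 ChIP-seq study placed on chromosome II of Caenorhabditis elegans, out of 8006 intervals on all 6 chromosomes (15.7%). The rule takes every interval on the chromosome and uses none of their values. The study used fed L1 larvae, the first larval stage, all hermaphrodites of strain OP18 grown at 20 degrees C. Every library came from this 1 strain, which has the mutation unc-119(ed3) on chromosome III and the transgene wgIs18. The transgene was brought in by bombardment and pairs a working gene, unc-119(+), with the fusion lin-39::TY1::EGFP::3xFLAG. No change at the native lin-39 gene is named in the genotype. The groups were 2 LIN-39 ChIP libraries, collected with an antibody against GFP, and 2 Input libraries of total chromatin DNA. No data of an Input library were read here. Whether the Input libraries entered the deposited interval calls is not stated. By the labels the fusion protein follows the native lin-39 pattern, and chromatin came from whole larvae, so an interval does not tell in which cells LIN-39 was bound.

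LIN-39 is a Hox protein, a homeodomain transcription factor that gives cells of the mid-body their regional identity. In larvae it is known for its roles in the vulval precursor cells, in migrating neuroblasts and in neurons of the ventral cord. Hox proteins bind short DNA sites, often together with cofactors of the PBC and MEIS families, which in C. elegans include CEH-20 and UNC-62. Genes that act with LIN-39 in vulval development lie on chromosome II, among them let-23, which encodes the EGF receptor, and lin-31, which encodes a winged-helix transcription factor, by their chromosome in the gene table of assembly WBcel235. The intervals are on WormBase WS220, another build, so none was assigned to these or other genes, and intervals are named by position.

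Intervals were deposited in 3 lists: 1 for each ChIP library and the combined list for the whole series. Each interval has a start, an end and 1 significance value, for which a smaller number means a stronger interval. Read numbers are not part of the lists, and the depth of the libraries is unknown. Whether the replicates were separate cultures is not in the labels, and what differs between them may be technical. Each list is a single call, and the exact Clopper-Pearson 95% intervals given with shares cover only counting error, since intervals that lie near each other are not independent. For that reason no p-value is given for a difference between chromosomes or between groups of intervals.

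Chromosome II held 1259 combined intervals, 579 replicate 1 intervals and 316 replicate 2 intervals. Up to the largest interval end on it, position 15269075, this was 82.5 combined intervals per Mb, against 79.5 per Mb on the other 5 chromosomes together. The density in replicate 1 was 37.9 per Mb on II and 34.9 per Mb on the others, and in replicate 2 it was 20.7 per Mb on II and 16.8 per Mb on the others. Combined intervals covered 454713 bp of II, or 2.98% of its extent, and 2.93% of the extent of the other chromosomes. The median width of combined intervals was 287 bp on II and 287 bp elsewhere. Single chromosomes differed more from II than this sum of them. Their densities ran from 65.4 per Mb on X to 102.3 per Mb on IV, and their median widths were 227.5 bp on V, 236 bp on IV, 332 bp on III, 338 bp on I and 347.5 bp on X. Chromosome II thus lay within the range of the others in both.

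Of the combined intervals on II, 230 (18.3%, 16.2 to 20.5%) met an interval of each ChIP library by 1 bp or more. Over all chromosomes, 15.7% of combined intervals did. A further 303 (24.1%, 21.7 to 26.5%) overlapped replicate 1 alone and 74 (5.88%, 4.64 to 7.32%) overlapped replicate 2 alone, against 24.2% and 4.72% over all chromosomes. The remaining 652 (51.8%, 49.0 to 54.6%) overlapped neither list, against 55.4% over all chromosomes. Support from both libraries was thus the case for a minority of the intervals on II. The lengths of the lists fixed this in advance. Replicate 2 had 316 intervals on II, of which 1 met 2 or more combined intervals, so a majority of 1259 was not possible. On the other 5 chromosomes, 15.3% (14.4 to 16.1%) overlapped both lists and 56.1% (54.9 to 57.2%) overlapped neither. Taken one by one, those chromosomes ranged from 13.4% on I to 17.6% (15.3 to 20.1%) on III for overlap with both. The share on II was the highest of the 6, but its interval overlaps that of III and the difference was not tested.

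Support from both libraries was found mainly at the strong end of the chromosome II intervals. The combined list belongs to the same series of 2 ChIP libraries, so its values are not independent of the replicate lists. How far this alone puts more support at the strong end was not tested. The intervals were ranked by significance value and cut into 5 quintiles of 251 or 252. In the strongest quintile, with values up to 9.42e-09, 207 of 252 (82.1%, 76.8 to 86.7%) overlapped both lists and 0 overlapped neither. In the second quintile, 21 of 252 (8.33%, 5.23 to 12.5%) overlapped both, while 135 (53.6%) overlapped replicate 1 alone. Each of the next 2 quintiles had 1 such interval of 252 (0.397%), and the weakest quintile had 0 of 251, for which the exact upper bound is 1.46%. The share overlapping neither list ran the other way, at 22.2%, 59.9%, 85.7% and 91.2% from the second quintile to the weakest. The strongest interval that lacked support from both ranked 100 on II, at 13447110 to 13448226 with a value of 3.78e-17, and it overlapped replicate 1 alone. The weakest interval with support from both ranked 1004, at 3994525 to 3994976 with a value of 3.48e-04.

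**Figure D1:**
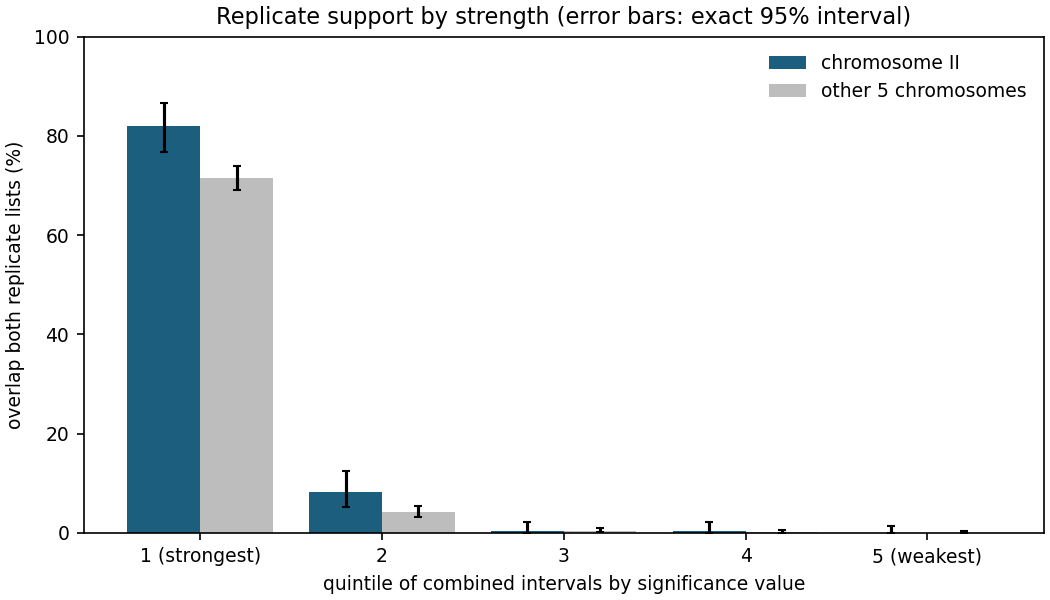
Share of combined intervals that overlap both replicate lists (vertical axis, percent) in quintiles by significance value (horizontal axis), for chromosome II and for the other 5 chromosomes, each cut into its own quintiles; error bars are exact 95% intervals. Support falls from 82.1% to 8.33% between the first and the second quintile on II, and from 71.6% to 4.15% on the other chromosomes.

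With each set of chromosomes cut into its own quintiles, the strongest overlapped both lists in 82.1% of intervals on II and in 71.6% (69.1 to 74.0%) on the other chromosomes. These quintiles end at different values, so the same limit was also applied to all chromosomes. The strongest quintile of the whole combined list, with values up to 2.59e-08, held 277 intervals on II, or 22.0% (19.7 to 24.4%) of its intervals, and 19.6% (18.7 to 20.6%) of those elsewhere. Of these, 212 (76.5%, 71.1 to 81.4%) overlapped both lists on II and 72.7% (70.2 to 75.1%) did elsewhere. At 1 limit for all, the counting intervals of II and the rest overlap.

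Strong intervals were also wide, but in the strongest quintile width and support did not move together. Over the 1259 intervals, Spearman's rho between width and the −log10 value was 0.646, as a description across intervals of 1 list. The 134 intervals under 50 bp and the 337 of 50 to 199 bp gave 0 with support from both. Support from both was seen in 84 of 491 (17.1%) at 200 to 499 bp and 117 of 251 (46.6%) at 500 to 999 bp. At 1000 bp or more it was seen in 29 of 46 (63.0%, 47.5 to 76.8%). A wider interval has more room to meet a list by 1 bp, and how much of the rise this gives was not tested. These shares were not taken on the other chromosomes. Inside the strongest quintile, the narrower 50% (191 to 579 bp) overlapped both lists in 104 of 126 intervals (82.5%, 74.8 to 88.7%) and the wider 50% (586 to 5230 bp) in 103 of 126 (81.7%, 73.9 to 88.1%). The median value of the wider ones was smaller, at 1.91e-16 against 5.28e-13 for the narrower ones. In the second quintile, the wider 50% were at 16 of 126 (12.7%, 7.44 to 19.8%) and the narrower 50% at 5 of 126 (3.97%, 1.30 to 9.02%).

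**Figure D2:**
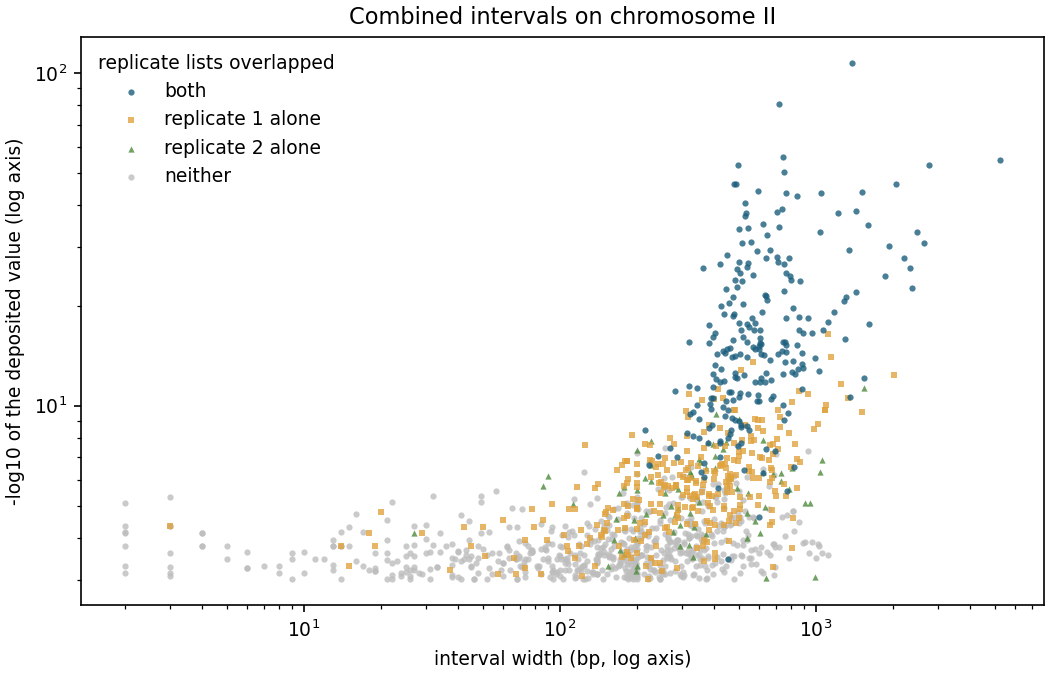
Each point is 1 of the 1259 combined intervals on chromosome II, with its width in bp (horizontal, log axis) and the −log10 of its deposited value (vertical, log axis), marked by the replicate lists it overlaps. Intervals overlapping both lists have a median width of 564 bp and lie at the upper right; those overlapping neither have a median width of 184.5 bp and none ranks above 273.

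Set against each other, the libraries found much the same strong regions on II. Of the 316 replicate 2 intervals, 236 (74.7%, 69.5 to 79.4%) overlapped replicate 1, against 73.8% over all chromosomes. Of the 579 replicate 1 intervals, 233 (40.2%, 36.2 to 44.4%) overlapped replicate 2, against 36.2% over all chromosomes. Each of the 50 strongest intervals of either replicate list on II was shared. By quintiles of replicate 2, sharing was 100%, 96.8%, 81.0%, 55.6% and 39.7% from the strongest to the weakest, and by quintiles of replicate 1 it was 95.7%, 59.5%, 23.3%, 11.2% and 11.3%. The unshared intervals of the longer replicate 1 list were weaker than its shared ones and had a median value of 2.18e-04, against 5.87e-09 for those shared.

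Most intervals found in 1 library alone lay more than 1 kb from any interval of the other, in lists that are sparse on II. The lists hold only values under 0.001, so weaker enrichment at the same place in the other library cannot be seen. The 346 unshared replicate 1 intervals lay a median of 14792 bp from the nearest replicate 2 interval, and 24 lay within 1 kb of one. The 80 unshared replicate 2 intervals lay a median of 8800 bp from replicate 1, and 6 lay within 1 kb. The best rank among unshared intervals was 90 in replicate 1 and 77 in replicate 2. Since replicate 2 has the shorter list, distances to it are longer by construction. Replicate 1 had 37.9 and replicate 2 had 20.7 intervals per Mb on II. How far these densities alone set the distances was not tested.

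Where intervals paired one to one, the libraries placed them close together and ordered them alike. There were 227 such pairs on II, with midpoints a median of 56.5 bp apart; 156 (68.7%) lay within 100 bp and 210 (92.5%) within 200 bp. In 202 pairs (89.0%) the overlap covered at least 50% of both intervals. The median width was 455 bp in replicate 1 and 439 bp in replicate 2, with replicate 1 wider in 125 of the 227. The values had a Spearman's rho of 0.723, and their −log10 a Pearson's r of 0.880, or 0.716 and 0.811 without the 2 pairs strongest in replicate 1. On the other chromosomes rho ranged from 0.628 to 0.736. Widths were less alike than values, with a rho of 0.495. These coefficients describe pairs called in both lists, share the same genome and sites, and are not a test. The pairs were also chosen for their overlap, which by itself limits how far apart their midpoints can lie.

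**Figure D3:**
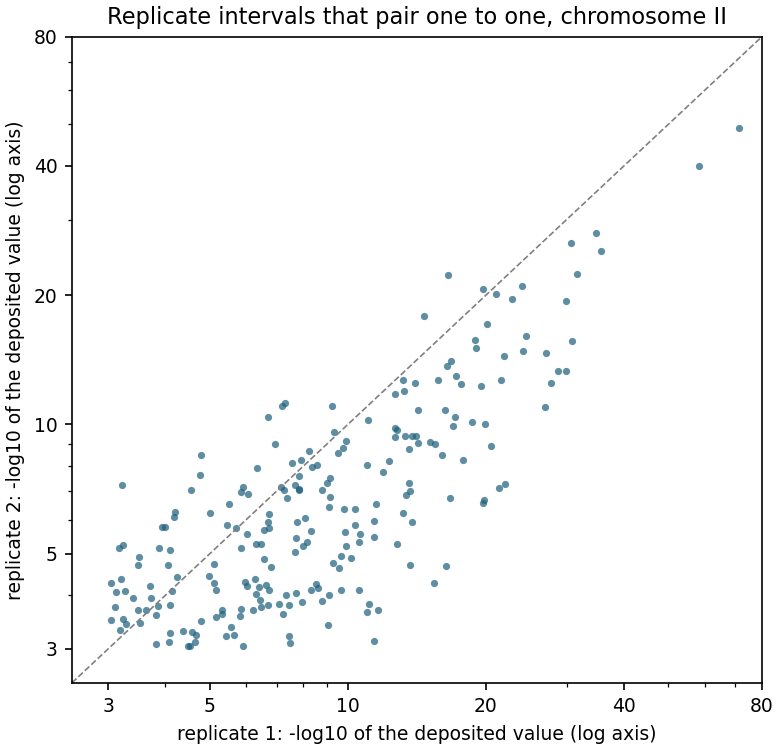
Values of the 227 one-to-one pairs on chromosome II, as −log10 of the deposited value in replicate 1 (horizontal, log axis) and replicate 2 (vertical, log axis); the dashed line marks equal values. In 176 pairs the replicate 1 value was the smaller, so most points lie below the line, and 2 pairs stand apart at the upper right.

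Those 2 pairs are the strongest intervals of chromosome II in all 3 lists. The first, at 5543129 to 5544512 (1384 bp), ranked 6 in the whole combined list and had a value of 3.66e-108, with 6.64e-72 in replicate 1 and 8.10e-50 in replicate 2. Its replicate intervals were each 1299 bp wide. The second, at 5844498 to 5845214 (717 bp), ranked 15 in the whole list with 3.26e-81, and had 4.78e-59 in replicate 1 and 1.28e-40 in replicate 2. They share a 500 kb window, yet each stood alone, with no other combined interval within 2 kb.

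All of the 10 strongest combined intervals on II overlapped both lists, and they lay in 6 of the 500 kb windows. The third, at 12944351 to 12945095 with 1.65e-56, ranked 8 in replicate 1 (1.81e-31) and 4 in replicate 2 (3.69e-27) among intervals on II. The fifth, at 14059651 to 14060145 with 8.44e-54, had 2.56e-36 in replicate 1 and 5.08e-26 in replicate 2, and the seventh, at 10562998 to 10563746 with 5.38e-51, had 1.45e-35 and 1.42e-28 in the same lists. These 3 intervals, of 495 to 749 bp, ranked between 3 and 8 on II in both replicates. The ninth and the tenth, at 8328801 to 8329285 (4.37e-47) and 8184885 to 8185361 (5.18e-47), were 485 and 477 bp wide. The ninth ranked 7 in replicate 1 and 17 in replicate 2, and the tenth ranked 5 and 6. The tenth ends where a gap of 139744 bp with no interval begins.

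The other 3 of the 10 strongest were wide regions that ranked 37 or further down on II in replicate 2. The fourth, at 10547533 to 10552762, was the widest combined interval on II at 5230 bp and had a value of 2.22e-55. It met 2 intervals of each library, which ranked 24 and 81 in replicate 1 and 92 and 219 in replicate 2. The sixth, at 10541832 to 10544597 (2766 bp, 9.75e-54), met 1 interval of replicate 1, ranked 6, and 2 of replicate 2, ranked 37 and 79. The eighth, at 9599913 to 9601963 (2051 bp, 3.96e-47), met 2 of each, ranked 22 and 245 in replicate 1 and 57 and 93 in replicate 2. Lists of different lengths give ranks that cannot be compared as changes. Across II, 11 combined intervals met 2 or more intervals of at least 1 replicate list, and 6 replicate 1 intervals met 2 or more combined ones.

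The 5 widest combined intervals included the fourth and the sixth strongest. The others were at 11634066 to 11636716 (2651 bp, rank 32 on II), 2972595 to 2975068 (2474 bp, rank 28) and 6889816 to 6892180 (2365 bp, rank 62). Each overlapped both lists. At the first of these, a single replicate 1 interval covered 2589 bp and a single replicate 2 interval 1643 bp. At the last, replicate 1 gave 1 interval of 1530 bp and replicate 2 gave 2, of 410 and 434 bp, with values of 1.59e-04 and 7.75e-04, the weaker of which ranked 302 of 316. In all, 46 combined intervals on II (3.65%) were 1000 bp or wider and 134 (10.6%) were under 50 bp, of which 123 overlapped neither replicate list. Replicate 1 had 18 intervals under 50 bp on II and replicate 2 had 0, with a narrowest interval of 101 bp.

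Along the chromosome, intervals were sparser in the left part than in the right. The 30 full windows of 500 kb held a median of 41.5 combined intervals, from 10 to 75, and the last, partial window held 26. The densest was 12000001 to 12500000 with 75 intervals, followed by 13000001 to 13500000 with 58 and 1 to 500000 with 56. The sparsest were 1500001 to 2000000 with 10, 3000001 to 3500000 with 17 and 2000001 to 2500000 with 19. Replicate 1 had 24, 28 and 23 intervals in the 3 densest windows and replicate 2 had 16, 12 and 12. Neither replicate list was highest in the densest window, as the largest counts in a full window were 31 in replicate 1 and 21 in replicate 2. In the 3 sparsest windows replicate 1 had 3, 7 and 8 and replicate 2 had 1, 2 and 2, so both libraries were low there. Over the full windows, Spearman's rho between the counts of the replicates was 0.776, as a description over 30 neighbouring windows.

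The densest window was not the one with the most intervals supported by both libraries. In the densest window, 6 of 75 intervals (8.00%, 2.99 to 16.6%) overlapped both lists, 42 overlapped neither, and the median width was 201 bp. By number, intervals with support from both were most frequent in 10500001 to 11000000, at 15 of 55 (27.3%, 16.1 to 41.0%), and in 2500001 to 3000000, at 14 of 47 (29.8%, 17.3 to 44.9%). These 2 windows were picked for that number after their values were seen, and the first of them was also among the denser ones, with 55 intervals against 56 in the next denser. Over the 30 full windows, the count of intervals overlapping both lists had a Spearman's rho of 0.542 with the count of all combined intervals, of which it is a part, and of 0.243 with the count overlapping neither. The 100 strongest intervals on II were found in 29 of the 31 windows, with at most 7 in 1 window, so they were spread along nearly the whole chromosome.

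**Figure D4:**
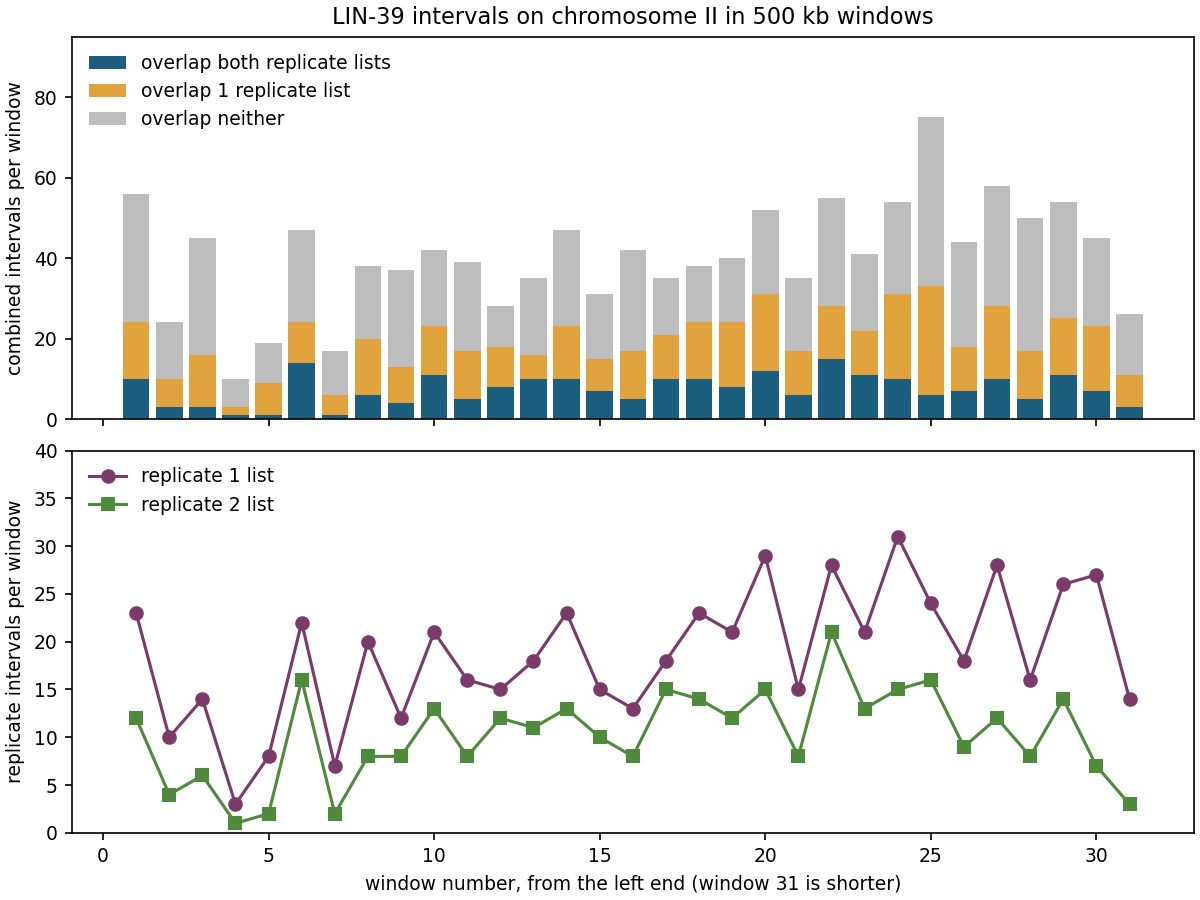
Upper panel: number of combined intervals (vertical axis) in 31 windows of 500 kb along chromosome II, numbered from the left end (horizontal axis), stacked by overlap with both, 1 or neither replicate list. Lower panel: intervals of each replicate list in the same windows. Window 25 has the most combined intervals (75) but 6 that overlap both lists, and windows 4, 5 and 7 are the lowest full windows in the upper panel.

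With the extent of II cut into 3 sections of equal length, the right section held 529 combined intervals (42.0%, 39.3 to 44.8%), the middle section 384 (30.5%, 28.0 to 33.1%) and the left section 346 (27.5%, 25.0 to 30.0%). The right section was the fullest in each replicate list too, with 42.1% in replicate 1 and 39.2% in replicate 2, and the left section was the emptiest, with 24.9% and 23.4%. Of the intervals overlapping both lists, 37.4% (31.1 to 44.0%) were in the middle section and 38.7% (32.4 to 45.3%) in the right. Both counting ranges overlap those of all combined intervals, which include this group. The share of intervals overlapping both lists was 22.4% (18.3 to 26.9%) in the middle section, 16.8% (13.7 to 20.3%) in the right and 15.9% (12.2 to 20.2%) in the left. The median value ran in the same order as this share and the median width did not: the width was 341 bp in the middle section, 244 bp in the right and 276.5 bp in the left, and the value was 1.43e-05 in the middle, 4.04e-05 in the right and 6.66e-05 in the left. The part of either in the difference was not tested.

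Many intervals on II lay in runs, here sets of 2 or more neighbours in 1 list with gaps of 2 kb or less. The combined list had 214 runs that held 557 of the 1259 intervals (44.2%, 41.5 to 47.0%), against 43.7% of combined intervals over all chromosomes. Of the runs, 145 were pairs, 32 held 3 intervals and 37 held 4 or more. Replicate 1 had 63 runs with 25.4% of its intervals and replicate 2 had 23 runs with 16.8%. A longer list puts neighbours closer together, so these shares cannot be compared between lists. Being in a run went with little difference in support: 104 of 557 intervals in runs (18.7%, 15.5 to 22.2%) and 126 of 702 single intervals (17.9%, 15.2 to 21.0%) overlapped both lists. Within runs, support was mixed. At least 1 interval overlapped both lists in 78 runs (36.4%), every interval did in 6 (2.80%), and every interval overlapped neither in 38 (17.8%). Of the intervals with no overlap, 71 shared a run with an interval that overlapped both.

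The longest run on II held 2 of the 10 strongest intervals of the chromosome. It held 7 combined intervals at 10541832 to 10559764, covering 14516 of 17933 bp, with gaps of 255 to 780 bp. In order along it, the values were 9.75e-54, 3.02e-10, 2.10e-06, 2.22e-55, 1.02e-14, 1.17e-26 and 3.36e-39, so 4 strong intervals were interspersed with 3 weaker ones. Of the 7, 5 overlapped both lists, while the third and the fifth along it overlapped replicate 1 alone. Replicate 1 had 8 intervals across the run and replicate 2 had 7. The best replicate 1 value was 1.44e-31, at the first interval, and the best replicate 2 value was 8.17e-21, at the last. At the first, replicate 1 had 1 interval of 2707 bp, while replicate 2 had 2 intervals, with values of 6.51e-12 and 1.13e-08. A whole interval and a split one do not give like values, so the ends cannot be compared between the libraries. The seventh strongest interval on II, at 10562998 to 10563746, lay beyond the end of this run.

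**Figure D5:**
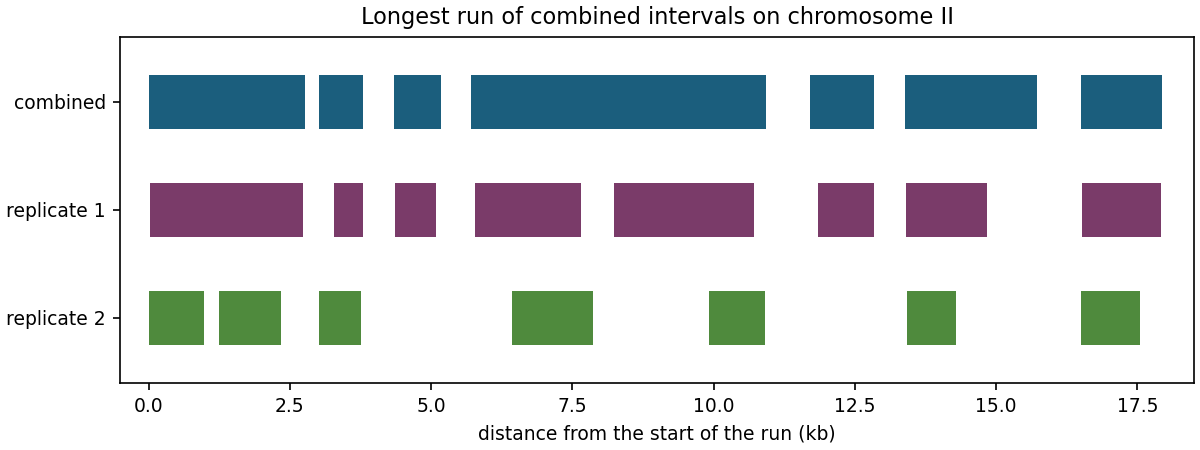
Map of the longest run on chromosome II, with boxes drawn to scale for the intervals of the combined, replicate 1 and replicate 2 lists, against distance in kb from the start of the run. The 7 combined intervals are met by 8 replicate 1 intervals and 7 replicate 2 intervals, and the third and the fifth combined intervals have no replicate 2 interval.

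The next runs, of 6 intervals each, were weaker and more sparsely filled. The run at 13063172 to 13071793 covered 2813 of 8622 bp, with values from 2.05e-13 to 2.47e-04, and 2 of its 6 intervals overlapped both lists while 2 overlapped neither. The run at 11974282 to 11982894 covered 4102 of 8613 bp. Its first interval had a value of 3.51e-30 and ranked 35 on II, with 2.06e-16 in replicate 1 and 2.04e-13 in replicate 2, and its last ranked 972. In that run 3 intervals overlapped both lists and 0 overlapped neither, although 1 of these rested on a replicate 2 interval with a value of 8.11e-04, which ranked 305 of 316. In total 6 runs held 6 intervals, and these 2 were the longest of them.

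In the strongest quintile on II, 0 of 252 combined intervals were without any replicate interval, while in the second quintile 56 of 252 (22.2%) were. The strongest 3 that overlapped neither list were at 2832027 to 2832515 (489 bp, 2.44e-08), 13537714 to 13537970 (257 bp, 3.59e-08) and 94939 to 95864 (926 bp, 4.68e-08), and they ranked 273, 282 and 287 on II. The last belonged to a run of 4. Conversely, 534 of 579 replicate 1 intervals on II (92.2%, 89.7 to 94.3%) and 310 of 316 replicate 2 intervals (98.1%, 95.9 to 99.3%) were in the combined list, against 90.7% and 95.5% over all chromosomes. The 45 replicate 1 intervals outside it had a median width of 125 bp and the 6 of replicate 2 one of 234.5 bp. The strongest of them were at 6684311 to 6684461 in replicate 1 (8.01e-06, rank 239) and at 3226012 to 3226335 in replicate 2 (4.19e-04, rank 268). Of these 45 and 6 intervals, 0 met an interval of the other library. The combined list belongs to the same series, so picking intervals outside it may by itself favour this. How far it does was not tested.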

How the data were processed

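The authors deposited 3 interval lists, with PeakSeq as their source and build WormBase WS220, per the file headers and columns. Each interval has 1 p-value or q-value as deposited by the authors, with no statement of which; all lie under 0.001. For the PeakSeq version, thresholds, aligner, use of the Input libraries and pooling of replicates, nothing is given in the sources used here. Per the labels' protocols, chromatin was crosslinked in 2% formaldehyde.

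Overlap means 1 bp or more, and width is end minus start plus 1. Windows of 500 kb count midpoints from position 1. The extent of a chromosome is its largest interval end in any list. Shares have exact Clopper-Pearson 95% intervals. Intervals named are the 10 strongest, the 5 widest, the 3 longest runs, the 3 densest and 3 sparsest windows, the 3 longest gaps, and the 3 strongest without overlap; others are edges of a rank order. The chromosome, its members and the rules were chosen with earlier results of these data known. WS220 sequence and annotation were not used here, so genes and sequences at the intervals were not analysed here. Scripts used Python 3.11.15, numpy 2.4.6, scipy 1.17.1 and matplotlib 3.10.9, and were tested on simulated data.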

Additional observations from a re-analysis of the deposited data

How the results depend on the processing

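Of 41 alternatives over 11 results, 10 stayed within the counting error of the value reported, within 1.5 times for the number of intervals, or, for Spearman's rho, within its Fisher interval of 0.654 to 0.780. The cause of the other moves was not tested, apart from those the construction fixes (shorter lists, fewer members). The number of intervals was 579 in replicate 1, 316 in replicate 2 and 661 in the stronger 50% of the combined list, and the median window density was 38.0 and 23.0 per Mb in the replicates. With reciprocal overlap of 50%, the share overlapping both lists was 15.1%, neither 57.3%, replicate 2 in replicate 1 63.9%, replicate 1 in replicate 2 34.9%, and both in the strongest quintile 68.3%. With midpoints within 200 bp, these were 16.1% for both, 66.8% for replicate 2 in replicate 1, and 71.8% in the strongest quintile. In the stronger 50% of each list, 21.2% overlapped both, and sharing was 88.2% for replicate 2 and 45.6% for replicate 1. The strongest quintile of the whole list gave 76.5%. With intervals of at least 50 bp, 47.0% overlapped neither and the median width was 325 bp. Leaving out 1 replicate list put the share without overlap at 57.7 to 75.9%. The share in runs was 28.8% with gaps of 1 kb and 69.6% with 5 kb, 25.4% in replicate 1 and 16.8% in replicate 2. The median width was 389 bp in replicate 1, 422 bp in replicate 2 and 440 bp in the stronger 50%. The middle section held 37.3% of replicate 2, 37.4% of intervals overlapping both lists and 33.6% of the stronger 50%.

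No paired analysis was possible because the files used here hold no interval list of an Input library to set beside its ChIP library. Depth is unknown, and with it the smallest enrichment that each library was able to show.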

Other observations

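The longest gaps between neighbouring combined intervals on II were 192674 bp at 1820304 to 2012977, 139744 bp at 8185362 to 8325105 and 135282 bp at 9426601 to 9561882. No replicate interval lay in any of them. The first falls in the sparse left part of the chromosome, while the others lie in its middle section, where the share of intervals overlapping both lists was 22.4%.

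The ends of chromosome II were not empty. The first combined interval started at position 132 and the last ended at 15269075, whereas replicate 1 ran from 24420 to 15229499 and replicate 2 from 24450 to 15089806. The first 500 kb held 56 combined intervals, of which 10 (17.9%, 8.91 to 30.4%) overlapped both lists and 6 were among the 100 strongest on II.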
